A study of Mus musculus with 6 samples.

Results

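The genes described here are those of the hemidesmosome and of the epithelial laminins, the structures that fix basal keratinocytes and hair follicle stem cells (HFSCs) to the basement membrane. Members were the 9 listed genes Itga6, Itgb4, Itga3, Itgb1, Lama3, Lamb3, Dst, Plec and Cd151, each taken from the array row that names it alone. All 9 were found among the 30176 genes tested, each with 1 row, so no choice between rows was needed.

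A hemidesmosome is built around α6β4 integrin, the product of Itga6 and Itgb4, which grips laminin-332 outside the cell. Inside the cell the plakins plectin (Plec) and BPAG1 (Dst) tie the integrin to keratin filaments, and the tetraspanin CD151 (Cd151) sits beside laminin-binding integrins in the membrane. α3β1 integrin, the product of Itga3 and Itgb1, also binds laminin-332 but couples to actin at focal adhesions. In skin, high surface α6-integrin marks cells on the basement membrane, and together with CD34 it is the usual pair of antigens for sorting bulge HFSCs.

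Dorsal skin was taken from female mice of the strain B6;129S4-Dab2tm1Cpr/J at postnatal day (PD) 35, with 3 arrays per group. WT mice were K14CreER-/- Dab2 fl/fl and Dab2-cKO mice were K14CreER+/- Dab2 fl/fl. Both therefore carried floxed Dab2, both received tamoxifen at 75 mg/kg per day on 5 consecutive days, and only Dab2-cKO carried the Cre, which acts in cells that use the keratin 14 promoter. Skin was digested in 0.25% trypsin and cells were sorted with antibodies to CD34 and α6-integrin, so the protein of 1 member, Itga6, was part of the gate. The labels place WT cells at the passage from rest (telogen) to growth (anagen) and Dab2-cKO cells in late telogen, so genotype and hair cycle phase cannot be told apart in these arrays.

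The targeted gene went against the labels. Dab2 signal was 6.61, 6.49 and 6.46 log2 units on the WT arrays and 8.86, 8.76 and 8.94 on the arrays labelled Dab2-cKO. Signal was thus higher where the deletion was expected, by 2.34 ± 0.08 (SE, limma adjusted p = 1.34e-05). Under the 6 other scalings used below, the Dab2 difference ran from 1.67 to 3.42. The row covers the whole transcript and cannot separate the deleted part. The cause of the higher signal was not tested, and every direction below rests on the labels as deposited. Pearson's r between arrays over all genes was at least 0.9913 inside a group and at most 0.9363 across groups, and log2 signals of transcript rows ran up to a ceiling of 19.93, far above every member. As no detection calls were used, the 95th percentile of 1525 olfactory and vomeronasal receptor genes, 7.28 log2 units, served as the background level. A fold is written as "at least" where the dimmer group lay below it. The level is pooled over both groups, and the receptor genes themselves had a median difference of -0.80 as deposited. A place above or below it is thus no detection call for either group.

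Of the 9 members, 7 were higher and 1 was lower in the arrays labelled Dab2-cKO at an adjusted p under 0.05. Over all genes tested 50.8% passed this test, 18.4% being higher and 32.4% lower. The median difference of the members was 0.76 log2 units, beside -0.14 over all genes tested. The count moved with the scale. With arrays centred on the positive control rows 4 members were higher and 2 lower, beside 2848 and 19016 of the 30176 genes tested. With Krt5 and Krt14 as the reference 2 were higher and 3 lower, beside 1810 and 24185 of all genes. With the receptor genes 8 were higher and none lower, beside 23065 and 2162 of all genes. Counts of other lists under these scalings are to be read beside the same numbers. The mean over all arrays exceeded the background level for Itga6, Itgb1, Dst and Cd151, and these 4 members were among those that rose. Dst passed this filter only through the arrays labelled Dab2-cKO, with a mean of 8.72 beside 7.14 in WT. The filter therefore lends no separate support to the rises. In genes above that level 32.9% were higher and 32.2% lower. The groups of arrays did not overlap for 8 of the 9 members, 7 upwards and 1 downwards, against 22.3% and 41.3% of all genes.

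**Figure D1:**
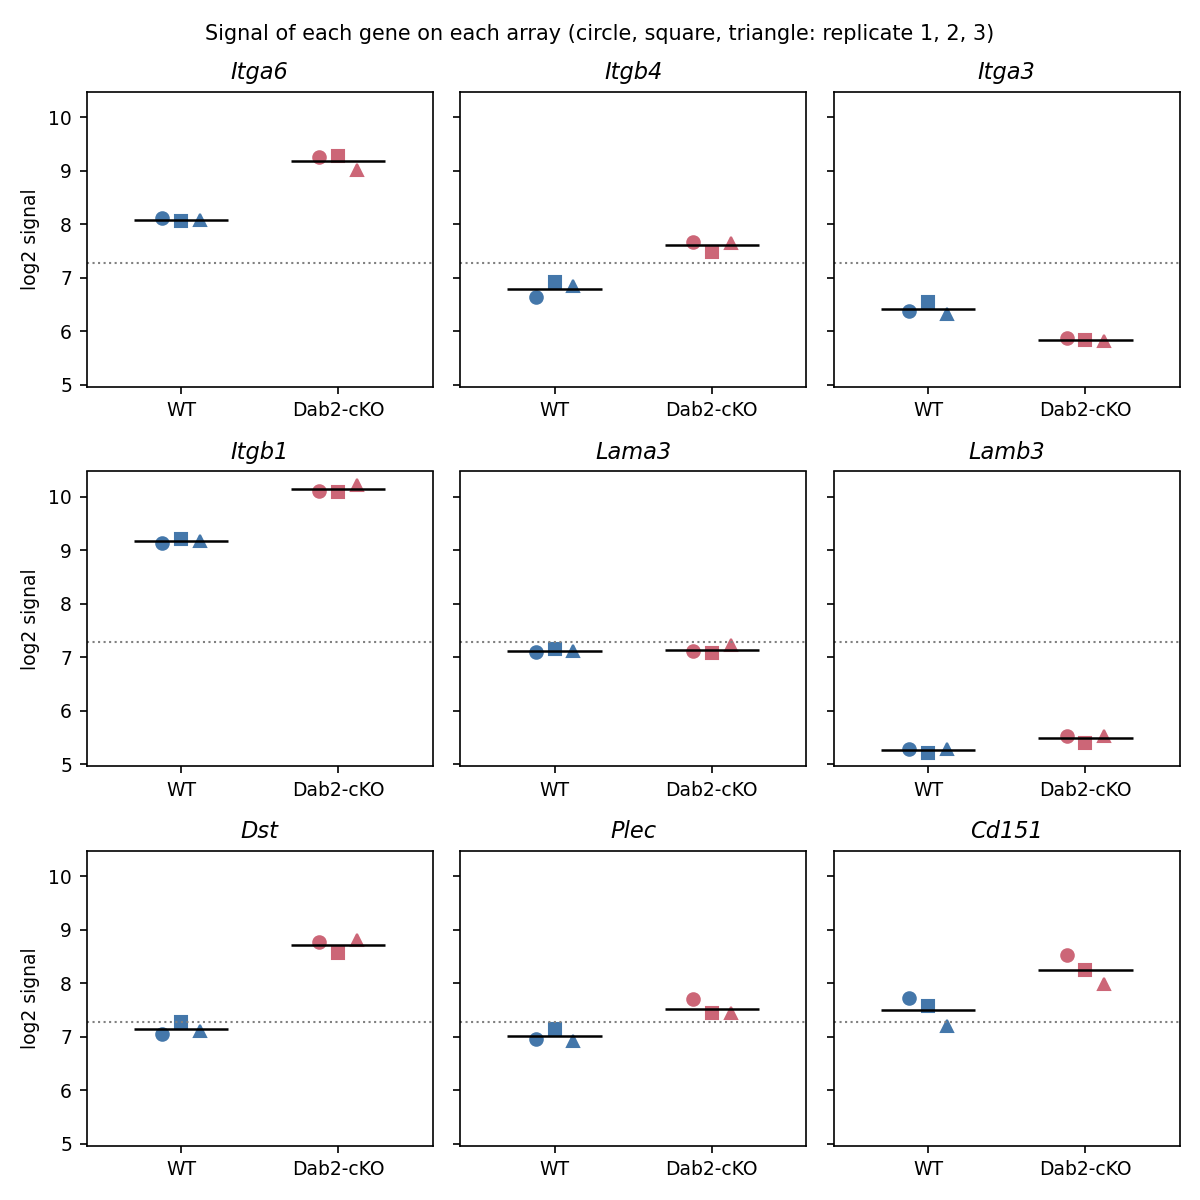
Log2 signal (y axis) of each of the 9 genes on each array, for WT (blue) and the arrays labelled Dab2-cKO (red). Symbols are replicates 1 to 3, bars are group means, and the dotted line is the background level of 7.28. The groups are apart for every gene except Lama3, with Itga3 the gene that was lower, an order that turned under centring on the receptor genes or the keratinocyte list. Signals of different genes come from different probes and are not to be compared.

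The receptor of the hemidesmosome rose in both its chains. Itga6, whose α6 chain pairs with β4 or β1, had signals of 8.11, 8.07 and 8.07 in WT and 9.27, 9.28 and 9.02 in the arrays labelled Dab2-cKO. The WT arrays were almost identical, and the lowest array labelled Dab2-cKO lay 0.90 above the highest WT array. The difference was 1.10 ± 0.09 (SE, adjusted p = 0.000262), or 2.15-fold. Itgb4, which encodes the β4 chain with the long cytoplasmic tail that plectin binds, had signals of 6.63, 6.92 and 6.84 in WT and 7.67, 7.49 and 7.65 in the arrays labelled Dab2-cKO. All 3 WT arrays lay below the pooled background level and all 3 of the others above it. Itgb4 was 0.81 ± 0.10 higher (SE, adjusted p = 0.00121), which is at least 1.25-fold. When arrays were centred on Krt5 and Krt14, the difference of Itga6 was 0.43 and still past the threshold, while that of Itgb4 was 0.14 (adjusted p = 0.446). Since the cells were gated on α6-integrin protein, the position of the gate can bear on Itga6, and its part was not tested.

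Both plakins that face the keratin filaments rose. Dst had signals of 7.06, 7.27 and 7.10 in WT and 8.77, 8.57 and 8.81 in the arrays labelled Dab2-cKO. This was the largest rise among the 9 members, with a gap of 1.30 between the groups. The difference of 1.57 ± 0.10 (SE, adjusted p = 9.89e-05) was at least 2.71-fold and ranked at the 96.8th percentile of all genes tested. Plec had signals of 6.96, 7.14 and 6.92 in WT and 7.70, 7.45 and 7.44 in the arrays labelled Dab2-cKO. The groups were apart by 0.30, and the WT arrays lay below the background level. Plec was 0.52 ± 0.11 higher (SE, adjusted p = 0.00799), at least 1.19-fold, a difference that became 0.16 (adjusted p = 0.278) when centred on the positive control rows and turned to -0.15 when centred on Krt5 and Krt14. Both genes make several isoforms from separate first exons, in epithelium, muscle and nerve among other tissues, and 1 array row cannot tell which isoform gave the signal.

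As deposited, the chains of α3β1 integrin differed in opposite directions, with Itga3 below the background level. Itgb1, whose β1 chain is shared by many integrins of almost all skin cells, had signals of 9.14, 9.21 and 9.18 in WT and 10.10, 10.10 and 10.23 in the arrays labelled Dab2-cKO. The SD was 0.03 in WT and 0.07 in the other group, beside a difference of 0.97 ± 0.07 (SE, adjusted p = 0.000167), a 1.96-fold rise. Centred on Krt5 and Krt14 it was 0.30 (adjusted p = 0.0983). Itga3, the laminin-binding α3 chain, had signals of 6.37, 6.54 and 6.31 in WT and 5.87, 5.83 and 5.81 in the arrays labelled Dab2-cKO. This member fell, by 0.57 ± 0.08 (SE, adjusted p = 0.00216), with all 6 arrays below the background level, so no fold is given. The receptor genes that set this level had a median difference of -0.80 themselves. The direction of Itga3 turned to 0.29 (adjusted p = 0.0687) under centring on the receptor genes and to 0.51 (adjusted p = 0.0395) when centred on the keratinocyte list.

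Dst had the largest rise and has promoter windows at separate starts. Itgb1 and Itga3, chains of 1 integrin, differed in opposite directions as deposited, with Itga3 below the background level. For these reasons the promoter windows of Dst, Itgb1 and Itga3 are shown. They are RefSeq windows on build GRCm38.p6, from 250 bases before to 50 after a transcript start, printed 5′ to 3′ on the strand of the gene, with matches to the motifs below in capitals. They lie at chr1:34011345-34011644 (+) and chr1:34160010-34160309 (+) for Dst, chr8:128685404-128685703 (+) for Itgb1 and chr11:95076665-95076964 (-) for Itga3.
Dst, first start: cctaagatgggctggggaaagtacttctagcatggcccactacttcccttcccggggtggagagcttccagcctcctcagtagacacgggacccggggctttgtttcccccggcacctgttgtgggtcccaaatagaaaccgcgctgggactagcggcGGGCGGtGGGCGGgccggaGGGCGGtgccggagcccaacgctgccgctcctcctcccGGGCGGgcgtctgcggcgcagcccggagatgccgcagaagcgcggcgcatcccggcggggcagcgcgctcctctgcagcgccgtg
Dst, second start: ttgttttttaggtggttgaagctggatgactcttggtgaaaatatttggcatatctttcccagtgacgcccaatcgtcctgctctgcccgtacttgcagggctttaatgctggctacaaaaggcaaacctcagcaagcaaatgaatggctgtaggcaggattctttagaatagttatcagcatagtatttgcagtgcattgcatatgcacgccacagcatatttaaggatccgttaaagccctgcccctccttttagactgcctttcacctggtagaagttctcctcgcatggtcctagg
Itgb1: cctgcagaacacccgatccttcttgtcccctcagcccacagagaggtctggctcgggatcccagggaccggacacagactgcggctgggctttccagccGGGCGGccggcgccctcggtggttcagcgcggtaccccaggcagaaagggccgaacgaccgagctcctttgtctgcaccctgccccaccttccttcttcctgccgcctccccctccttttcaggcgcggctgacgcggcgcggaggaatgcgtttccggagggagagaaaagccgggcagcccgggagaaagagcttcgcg
Itga3, first start: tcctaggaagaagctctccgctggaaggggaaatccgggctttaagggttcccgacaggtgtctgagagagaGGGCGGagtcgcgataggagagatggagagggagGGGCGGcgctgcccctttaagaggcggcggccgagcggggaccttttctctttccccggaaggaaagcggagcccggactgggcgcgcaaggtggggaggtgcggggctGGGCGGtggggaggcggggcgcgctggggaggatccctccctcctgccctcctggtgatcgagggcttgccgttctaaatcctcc

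The motifs searched on both strands were the GC box GGGCGG, the TATA box TATAAA and the AP-1 site TGANTCA. The first Dst window held 4 GC boxes and had 70.3% G and C, whereas the second Dst window held none of the motifs and had 46% G and C. Itgb1 held 1 GC box and Itga3, the gene that fell as deposited, held 3 in its first window. The reference used held no window for Itga6, Itgb4, Plec or Lama3, so neither chain of α6β4 integrin enters these counts. Windows on chromosome 18, which holds Lama3, were also left out of the member windows. Of the 9 windows kept for 5 members, 5 held a GC box, none a TATA box and 1, the second of Itga3, an AP-1 site. Over 32851 windows of the same length 35.7% held a GC box, 13.6% a TATA box and 7.81% an AP-1 site. A match is only a run of letters, and GC boxes stood both in the window of Itgb1, which rose, and in that of Itga3.

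The tetraspanin Cd151, which binds α3 and α6 integrins in the membrane, had the widest scatter of the members. Its signals were 7.73, 7.57 and 7.20 in WT and 8.53, 8.25 and 7.99 in the arrays labelled Dab2-cKO. The SD was 0.27 in each group, and the closest arrays of the groups were 0.25 apart. Cd151 was 0.76 ± 0.19 higher (SE, adjusted p = 0.0166), a 1.69-fold difference. The difference became 0.39 (adjusted p = 0.0865) with the positive control rows as reference and 0.08 (adjusted p = 0.687) when centred on Krt5 and Krt14.

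The laminin chains, which are the ligand, differed by at most 0.22 log2 units between the groups as deposited, and by more under most other scalings. Lama3, the α3 chain of laminin-332, had signals of 7.10, 7.15 and 7.11 in WT and 7.11, 7.08 and 7.23 in the arrays labelled Dab2-cKO. The groups overlapped, and the difference of 0.02 ± 0.07 (SE, adjusted p = 0.81) had a 95% confidence interval from -0.15 to 0.20. Lamb3, the β3 chain, had signals of 5.28, 5.21 and 5.28 in WT and 5.53, 5.39 and 5.52 in the arrays labelled Dab2-cKO. The groups were 0.11 apart and the difference was 0.22 ± 0.07 (SE, adjusted p = 0.045). Both genes lay below the background level in both groups, so these rows say little of laminin RNA. The Lamb3 call ended when any of WT replicate 1 (adjusted p = 0.0812), WT replicate 2 (0.127), WT replicate 3 (0.0907), Dab2-cKO replicate 1 (0.124) or Dab2-cKO replicate 3 (0.113) was left out, and in the fit with a replicate block (adjusted p = 0.101). Signs also followed the scale, with Lama3 at -0.34 and Lamb3 at -0.14 when centred on the positive control rows, and at -0.65 and -0.45 when centred on Krt5 and Krt14. With the receptor genes as reference Lama3 was at 0.89 (adjusted p = 0.000274) and Lamb3 at 1.08, and with the keratinocyte list they were at 1.11 and 1.31, so that Lama3 passed the threshold upwards under these references.

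The differences ran, from highest to lowest as deposited, through Dst, Itga6, Itgb1, Itgb4, Cd151, Plec, Lamb3, Lama3 and Itga3. The 95% confidence intervals of Itga6 (0.88 to 1.33), Itgb1 (0.80 to 1.14), Itgb4 (0.56 to 1.06) and Cd151 (0.30 to 1.21) overlapped one another, whereas the interval of Dst (1.33 to 1.81) started about where that of Itga6 ended and the interval of Itga3 (-0.78 to -0.37) lay below all others. Centring moves every gene of an array by the same amount, so this order is kept under every centring while the zero line moves. Itga6 and Dst were higher and past the threshold in all 6 other scalings. Itgb1 and Itgb4 were past it in 5 of 6, and Plec and Cd151 in 4 of 6. Itga3 was lower and past it in 4 of 6 and above 0 in the other two, past it in 1 of them.

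**Figure D2:**
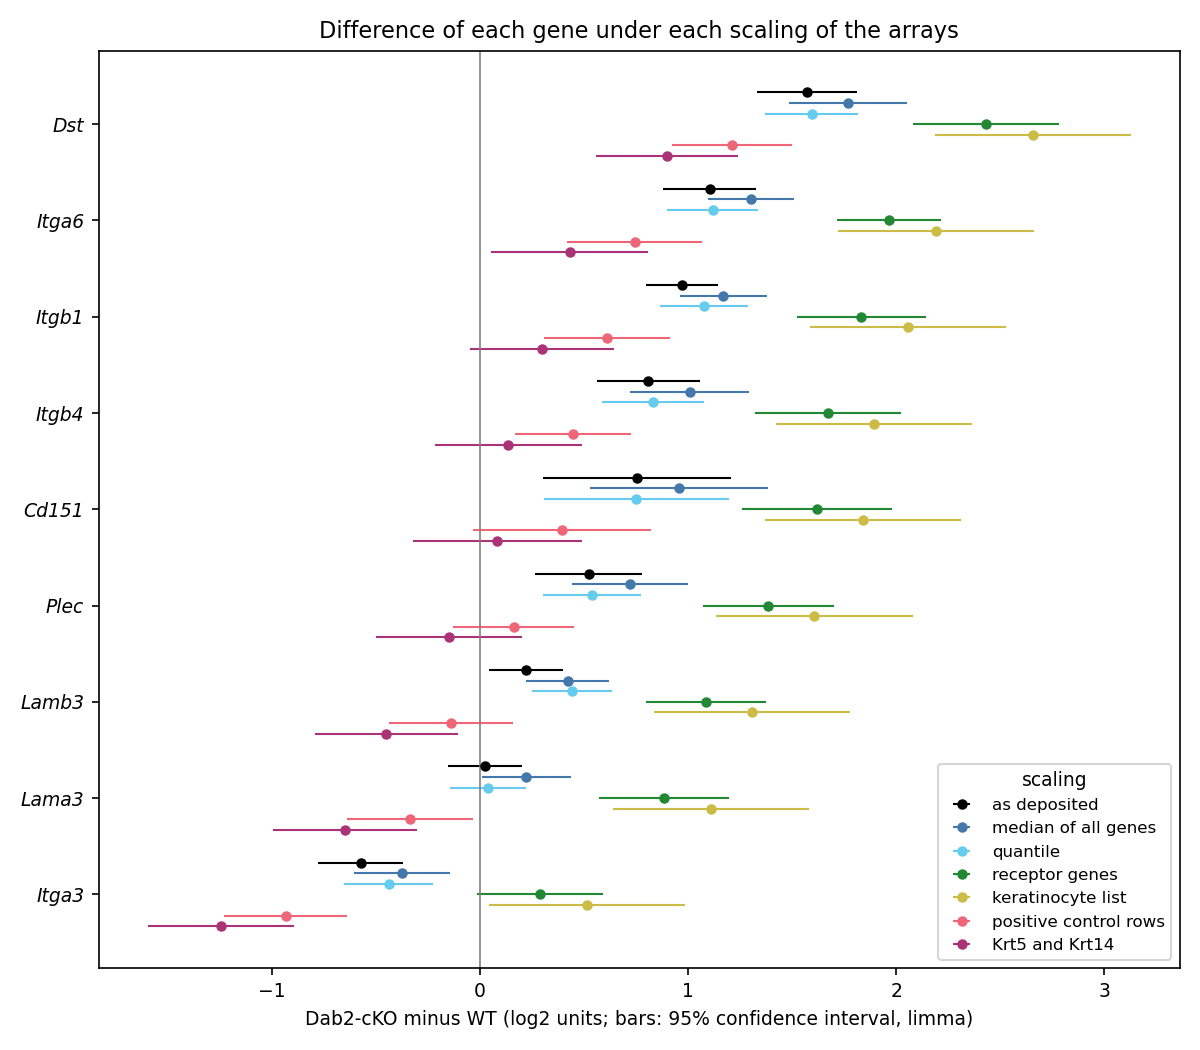
Difference between the groups (x axis, log2 units, Dab2-cKO minus WT) of each gene (y axis) as deposited and under the 6 other scalings, with limma 95% confidence intervals. Dst and Itga6 stay to the right of 0 under each scaling, Itga3 is left of 0 except with the receptor genes and the keratinocyte list, and Lama3, Lamb3 and Plec lie on both sides.

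Members were also compared with each other on the same array, a measure that centring cannot move. Each of the 6 pairs holds at least 1 gene whose mean lay below the background level in WT, and Itga3, Lama3 and Lamb3 lay below it in both groups, so these are differences of signal and not ratios of RNA. With 3 arrays against 3 the smallest p the exact permutation test can give is 0.1, so no pair could pass a threshold of 0.05, and after adjustment over the 6 pairs the smallest was 0.15. With the WT mean set to 0, Itga6 minus Itga3 was 0.07, -0.15 and 0.08 in WT and 1.72, 1.77 and 1.54 in the arrays labelled Dab2-cKO. The groups did not overlap, with a change of 1.68 ± 0.11 log2 units (SE, two-sided exact p = 0.1). Dst minus Plec was -0.04, -0.01 and 0.05 in WT and 0.93, 0.98 and 1.23 in the arrays labelled Dab2-cKO, a change of 1.05 ± 0.10 (exact p = 0.1), with both genes below the background level in the WT means. Itga3 minus Cd151 changed by -1.33 ± 0.20 and Lama3 minus Lamb3 by -0.20 ± 0.06, both without overlap (exact p = 0.1). For the chains of α6β4, Itga6 minus Itgb4 changed by 0.30 ± 0.16 with overlapping groups (exact p = 0.2). Itgb4 minus Itgb1 changed by -0.16 ± 0.09, also with overlap (exact p = 0.2).

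**Figure D3:**
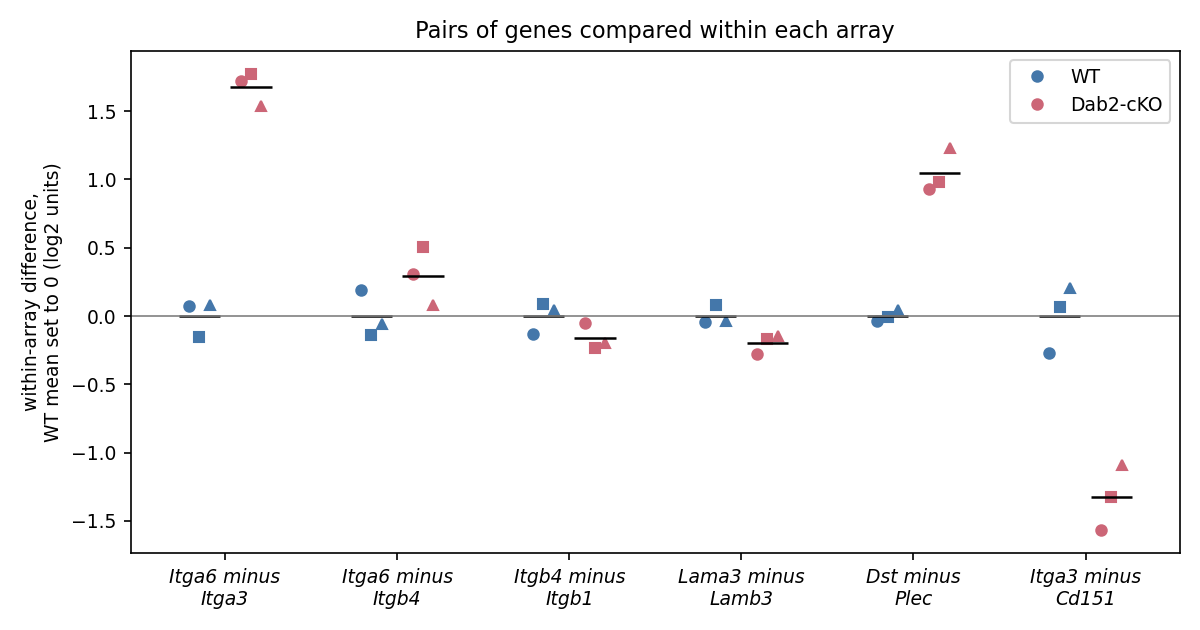
Difference between a pair of genes on each array (y axis, log2 units, WT mean of each pair set to 0) for 6 pairs, with WT in blue, the arrays labelled Dab2-cKO in red and bars at group means. The groups are apart for Itga6 minus Itga3, Lama3 minus Lamb3, Dst minus Plec and Itga3 minus Cd151, and overlap for Itga6 minus Itgb4 and Itgb4 minus Itgb1. Every pair includes a gene below the background level in WT.

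In shape over the 6 arrays, the member profiles most alike were Lama3 and Lamb3, both below the background level (root mean square distance 0.12 log2 units after centring each gene on its mean) and Itgb4 and Itgb1 (0.12), and the least alike were Itga3 and Dst (1.07). Among 7393 genes above the background level, Fxyd6, Vti1b and Rab5if lay nearest to Itga6 (0.04, 0.06 and 0.06). Among 7394 such genes, Golph3l, Eif6 and Ergic3 lay nearest to Itgb4 (0.04 for each). These distances rest mainly on the step between the groups.

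Other genes of basal attachment did not move as 1 block. Of 9 tested, 3 were higher and 4 lower, with a median of 0.01, which became 0.87 with the receptor genes as reference (7 higher, none lower). With Krt5 and Krt14, themselves in this list, as reference the median was -0.66 (1 higher, 5 lower). Col17a1, the collagen XVII that completes the hemidesmosome, had signals of 6.45, 6.73 and 6.73 in WT and 7.92, 7.40 and 8.62 in the arrays labelled Dab2-cKO, where its SD of 0.61 exceeded that of every member. It was at least 1.63-fold higher (adjusted p = 0.0108). Krt14, whose filaments the plakins hold in basal cells, was 0.96 ± 0.14 higher (SE, adjusted p = 0.00209) and its partner Krt5 differed by 0.39 ± 0.16 (adjusted p = 0.0892). Lad1, the gene of the anchoring filament protein ladinin, was 2.23-fold lower (difference -1.16 ± 0.16, SE, adjusted p = 0.00169). Of the other plakins, 3 were tested and none was higher. Dsp, the desmosomal plakin, was 1.75-fold lower and Evpl was 0.76 lower on the log2 scale below the background level, while Ppl differed by 0.06 without passing the test. With the receptor genes as reference the median of these plakins was 0.11 in place of -0.76, with 1 higher and none lower.

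Of 8 laminin chains outside the member list, 4 were higher and 1 was lower as deposited, against 7 higher and none lower with the receptor genes as reference. Lamb2 (at least 2.19-fold), Lama4 (at least 2.13-fold), Lamc1 (at least 1.95-fold) and Lama2 (at least 1.47-fold), chains of vessel, muscle and nerve basement membranes among others, rose from WT means below the background level. Lama5, a chain of the laminins under epithelia, was lower by 0.78 ± 0.09 (SE, adjusted p = 0.000721) with both groups below that level. The median of these chains was 0.50 as deposited and -0.17 when centred on Krt5 and Krt14. Of 15 other basement membrane genes 7 were higher and 1 lower, among them the laminin linker gene Nid1, 5.78-fold higher, and Hspg2, the gene of perlecan, 2.60-fold higher. The median of that list, 0.23, became -0.13 with the positive control rows as reference.

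Among other integrin subunits 9 of 14 were higher and 1 lower, but only 1, Itgb5 (2.34-fold higher), had a mean above the background level. Itga5, the fibronectin-binding α5 chain, was at least 1.29-fold higher. The median of 0.35 became -0.01 with the positive control rows as reference and -0.33 when centred on Krt5 and Krt14. Of 16 focal adhesion adaptor genes 12 were higher and 1 lower, with a median of 0.75 beside 0.76 for the members, and the median was 0.08 with Krt5 and Krt14 as reference (3 higher, 3 lower). Tns1 (at least 3.67-fold), Fermt2 (2.99-fold), Parva (2.02-fold) and Lims1 (1.88-fold), which link β1 integrins to actin, were those with the largest rises above the background level. Of 12 other tetraspanins 6 were higher and 3 lower, led by Tspan8 (4.02-fold higher), with Cd81, another partner of integrins, 2.19-fold higher. Their median of 0.59 was -0.08 when centred on Krt5 and Krt14. Of 12 genes of laminin processing and turnover 7 were higher and 2 lower, with Mmp2 at least 6.23-fold, Timp2 3.72-fold, Mmp14 2.93-fold and Timp3 1.76-fold higher, and the median of 0.31 became -0.06 with the positive control rows as reference. The lists were chosen with earlier results of these data known.

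**Figure D4:**
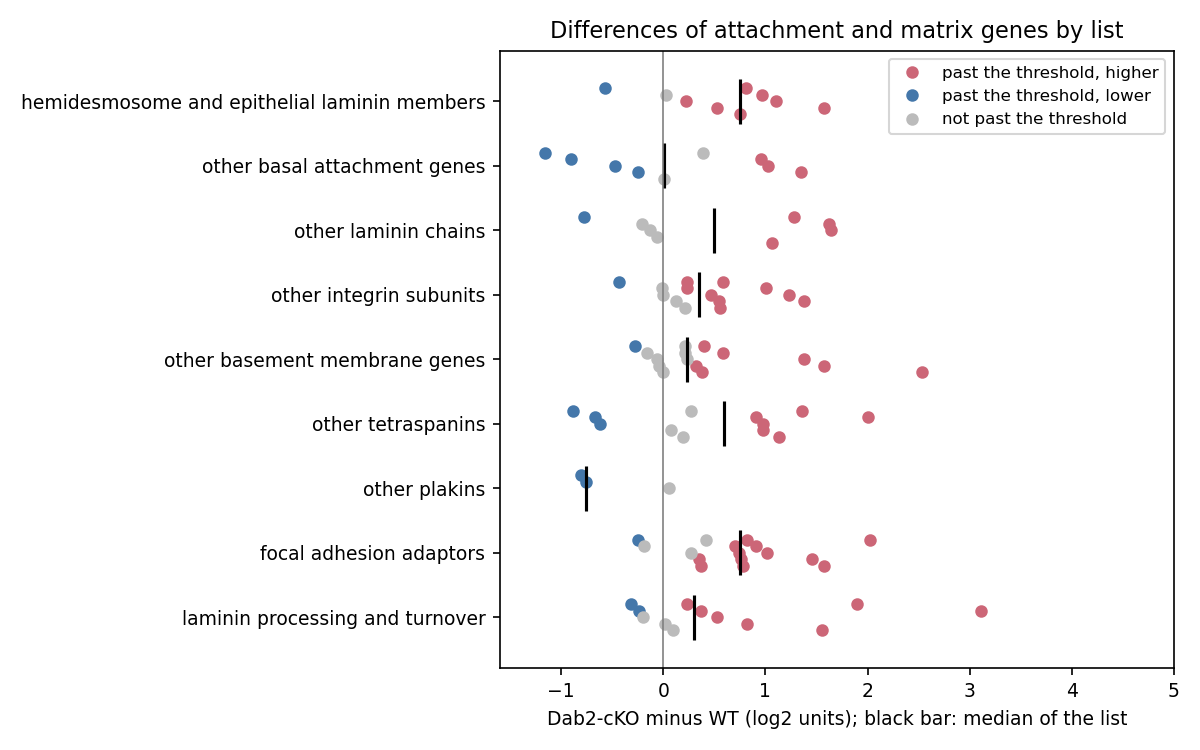
Difference between the groups (x axis, log2 units) of every tested gene of the members and of 8 related lists (y axis), coloured by whether it was past an adjusted p of 0.05 and in which direction, with a black bar at the median of each list. Medians run from -0.76 for the other plakins to 0.76 for the members as deposited, and all lists shift together under another centring, so that the medians of 7 lists are below 0 when centred on Krt5 and Krt14.

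Markers of other cells that use these genes moved in the same arrays. The methods scraped the epidermis off the dermis, strained the cells and sorted them on both antigens. How much RNA of other cells remained after these steps was not tested. Endothelial cells, muscle and Schwann cells also express integrin α6 or β1, plectin or dystonin. In bulk RNA, fewer cells of a type and less RNA per cell cannot be told apart. Of 15 endothelial markers all 15 were higher, and their mean log2 signal per array ran from 5.74 to 5.88 in WT and from 7.64 to 7.90 in the arrays labelled Dab2-cKO, with Tie1, Esam, Vwf, Erg, Sox17 and Robo4 below the background level in both groups. Of 12 skeletal muscle markers all 12 were higher, from 11.687 to 11.996 in WT and from 14.45 to 14.72 in the arrays labelled Dab2-cKO, with none below that level.  Of 12 fibroblast markers 11 were higher (9.06 to 9.38 against 11.12 to 11.48, with Fbln1, Twist2 and Col6a2 below the level in both). Of 10 smooth muscle and pericyte markers 7 were higher (6.84 to 7.04 against 8.15 to 8.40, with Cspg4, Mylk and Notch3 below it). Of 17 leukocyte markers 15 were higher and 1 lower (6.31 to 6.37 against 8.69 to 8.76, with Cd3e, Itgam, Itgb2, Laptm5 and Cd52 below it). The medians of the endothelial, skeletal muscle, fibroblast, smooth muscle and leukocyte lists were above 0 under all 6 other scalings. Schwann cell markers were dim, with 5 of 9 higher, 1 lower and 7 below the background level in both groups (5.68 to 5.73 against 6.06 to 6.14). The markers of melanocytes, which touch the same basement membrane, went down, with 8 of 10 lower and 1 higher (8.84 to 8.91 against 6.54 to 6.62, with Gpr143, Oca2 and Sox10 below it).

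Markers of keratinocytes themselves mostly fell as deposited. Of 17 tested, 2 were higher and 10 lower. Centred on Krt5 and Krt14, themselves in the list, 0 were higher and 14 lower. These markers numbered 1 higher and 13 lower with the positive control rows as reference, and 7 higher and 5 lower with the receptor genes. Their mean log2 signal ran from 11.25 to 11.53 in WT and from 10.64 to 10.77 in the arrays labelled Dab2-cKO, with Ovol1 below the background level in both. The 2 that rose were Krt14 and Grhl3, and the largest falls were those of Cdh3, Sfn, Krt17 and Cldn1. Of 11 bulge markers 5 were higher and 5 lower as deposited (7.59 to 7.72 against 7.64 to 7.75). Krt15, a bulge keratin, was 2.04-fold higher. Sox9 (difference -1.04 ± 0.13, SE, adjusted p = 0.00115) and Lhx2 (-0.93 ± 0.08, SE, adjusted p = 0.000341) were lower. Nfatc1, Tcf7l1, Tcf7l2, Lgr5 and Fgf18 were dim in either group. Among them Nfatc1 (difference 1.08), Tcf7l1 (0.50) and Fgf18 (0.40) were higher and Lgr5 (-1.63) was lower. Tcf7l2 (-0.03) did not pass the test. Cd34, the gene of the other antigen of the gate, was 5.47-fold higher (difference 2.45 ± 0.17, SE, adjusted p = 0.000142). The basal keratin genes Krt5 and Krt14 had group means of 17.02 and 15.64 in WT and 17.41 and 16.60 in the arrays labelled Dab2-cKO. The part of any of these cells in the rise of the hemidesmosome genes was not tested.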

How the data were processed

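From the sorted cells, 1 ng of RNA was amplified (GeneChip WT Pico) for Affymetrix whole-transcript arrays. The authors deposited log2 signals, 1 for each row. Their processing notes list Expression Console and RMA without versions. RMA as usually run forces arrays to 1 distribution of probe values and so hides shifts in total RNA. In the deposited values the array median of all genes still differed by -0.20 between the groups. From 123 to 183 transcript rows per array stood at the ceiling of 19.93. Whether the scale was changed after RMA was not tested, and folds rest on the scale as deposited. For the rows' genome build the sources used here give no name.

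Of 72688 rows, 6732 controls were left out. Of the 65956 transcript rows, 30638 named 1 gene, 2176 several and 33142 none here. The highest-mean row was taken for 354 genes with several rows. Symbols were updated through a RefSeq table of assembly GRCm38.p6, which held 29849 of 30176 genes. Of 224 entries of 18 gene lists, 211 were tested.

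Arrays labelled Dab2-cKO were compared with WT by limma 3.58.1 (R 4.3.3; lmFit, eBayes, 6 arrays, no covariate), two-sided, with Benjamini-Hochberg adjustment over all genes and a threshold of 0.05. The fit was also run on simulated data with independent noise and no shift between arrays, which cannot speak to errors of scaling. Named were all members, Dab2, Col17a1, up to 4 genes per list with the largest called difference and a group above background, and the 3 nearest profiles to Itga6 and Itgb4. Krt5, Grhl3, Lama5, Evpl and Ppl, and lists of dim markers, were named after their values were seen. Members and lists were chosen with earlier results of these data known.

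Alternatives were a replicate block, each array left out, 6 other scalings, a filter at the background level, all transcript rows, an intensity trend and the methods' t-test. Centring on Krt5 and Krt14 was added after the data were seen. Labels call the arrays biological replicates, and their number limits the precision.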

Additional observations from a re-analysis of the deposited data

How the results depend on the processing

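Leaving out each array in turn gave 6 to 7 members higher and 1 lower, a member median from 0.604 to 0.79, and 4641 to 5208 genes higher and 7574 to 8739 lower. The Lama3 difference ran from -0.022 (without Dab2-cKO replicate 3) to 0.053, and all within-array differences kept their sign, from 0.192 to 0.404 for Itga6 minus Itgb4 and from -0.227 to -0.118 for Itgb4 minus Itgb1.

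Scaling mattered most. The median of all genes was 0.063 after median centring, 0.727 on the receptor genes, -0.497 on the positive control rows, 0.949 on the keratinocyte list and -0.808 on Krt5 and Krt14, in place of -0.136. Genes higher and lower numbered 5557 and 9775 as deposited, 8421 and 6035 after median centring, 23065 and 2162 on the receptor genes, 2848 and 19016 on the positive control rows, 24158 and 1484 on the keratinocyte list, and 1810 and 24185 on Krt5 and Krt14, with 6352 lower after quantile normalization. The member median was 0.954 after median centring, 1.618 on the receptor genes (0 members lower), 0.394 on the positive control rows (4 higher, 2 lower), 1.84 on the keratinocyte list (0 lower) and 0.083 on Krt5 and Krt14 (2 higher, 3 lower). Itga3 turned to 0.289 on the receptor genes and 0.512 on the keratinocyte list. Lama3 turned to -0.338 and Lamb3 to -0.139 on the positive control rows, and on Krt5 and Krt14 Lama3 turned to -0.649, Lamb3 to -0.45 and Plec to -0.15. A shift of the scale produces these turns by construction.

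With genes above the background level alone, 4 members were tested, all 4 higher and 0 lower, with a median of 1.037, beside 2402 genes higher and 2348 lower. As Dst entered only through the arrays labelled Dab2-cKO, these values are no separate support for a rise. The replicate numbers did not pair the arrays, as same-numbered arrays correlated at -0.079, -0.223 and -0.019, and the replicate block left 6 members higher, 4659 genes higher and 7868 lower, ending the call of Lamb3 (0.222, adjusted p = 0.101). Over all transcript rows Lamb3 had adjusted p = 0.067. By the methods' t-test 8 members passed the threshold unadjusted and 7 after Benjamini-Hochberg, Cd151 (adjusted p = 0.0607) being lost. No member had a second row, so that alternative gave no value. Dim signal limits Itga3, Lama3 and Lamb3.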
